A study of Mus musculus with 6 samples.

Results

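The genes described here are the V1R receptor genes Vmn1r4 to Vmn1r54, taken as every gene of the count table whose symbol is Vmn1r followed by a number from 4 to 54. That gave 33 genes of the 38561 in the table, and of the 164 genes in it named as a numbered V1R receptor. Vomeronasal organs were dissected from CD-1 males, an outbred laboratory mouse stock for which the labels name no engineered allele. Lysates were precipitated with an anti-phospho-S6 antibody, S6 being a ribosomal protein, which pulls down ribosomes of cells with recent signalling together with the RNA they carry, and the RNA was sequenced. The 3 control exposure libraries and the 3 pup exposure libraries, called control and pup libraries below, differ, as far as the labels say, only in the exposure. The labels do not describe the control exposure, the length of either exposure, the ages, or whether a library held 1 animal or several, so the p-values below rest on a spread between libraries that may be technical only.

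V1R receptors are G protein-coupled receptors of sensory neurons in the apical layer of the vomeronasal epithelium, where they signal through the G protein subunit Gnai2 and are known for binding small molecules such as volatile urinary compounds and steroid derivatives. A mature neuron is thought to express 1 receptor gene of the family, so the RNA of a receptor stands for a small set of neurons. The second large family, the V2R receptors, belongs to basal neurons that signal through Gnao1. In bulk tissue, fewer neurons of a type and less receptor RNA per neuron cannot be told apart, and the precipitate adds the share of S6 that was phosphorylated.

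All 33 genes lie on chromosome 6 of the GRCm38 build and are annotated as protein-coding in GENCODE M21. They fall into 3 blocks, split wherever neighbouring members lay more than 2 Mb apart. The first block runs from 56924015 to 58443385 (13 genes, Vmn1r4 to Vmn1r30), the second from 66552180 to 66810609 (5 genes, Vmn1r32 to Vmn1r39) and the third from 89707540 to 90271213 (15 genes, Vmn1r40 to Vmn1r54). The coding sequences set the third block apart from the first 2, which fell into 1 group. Between the third block and the first 2 blocks, identity was 56.7% to 63.5%. Within the first 2 blocks the 18 genes were at least 79.2% identical, and most carry older symbols of the V1rc group. The third block holds 6 genes with V1ra coding sequences (Vmn1r42, Vmn1r43, Vmn1r45, Vmn1r47, Vmn1r48 and Vmn1r51), 7 with V1rb coding sequences (Vmn1r40, Vmn1r41, Vmn1r44, Vmn1r46, Vmn1r49, Vmn1r50 and Vmn1r53), and Vmn1r52 and Vmn1r54, which joined neither although their older symbols are V1ra7 and V1ra9. The letters stand for groups found by clustering the coding sequences into 5 groups, and each group is called by the older symbols most common in it. That number of groups was chosen after the expression values were seen.

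**Figure D1:**
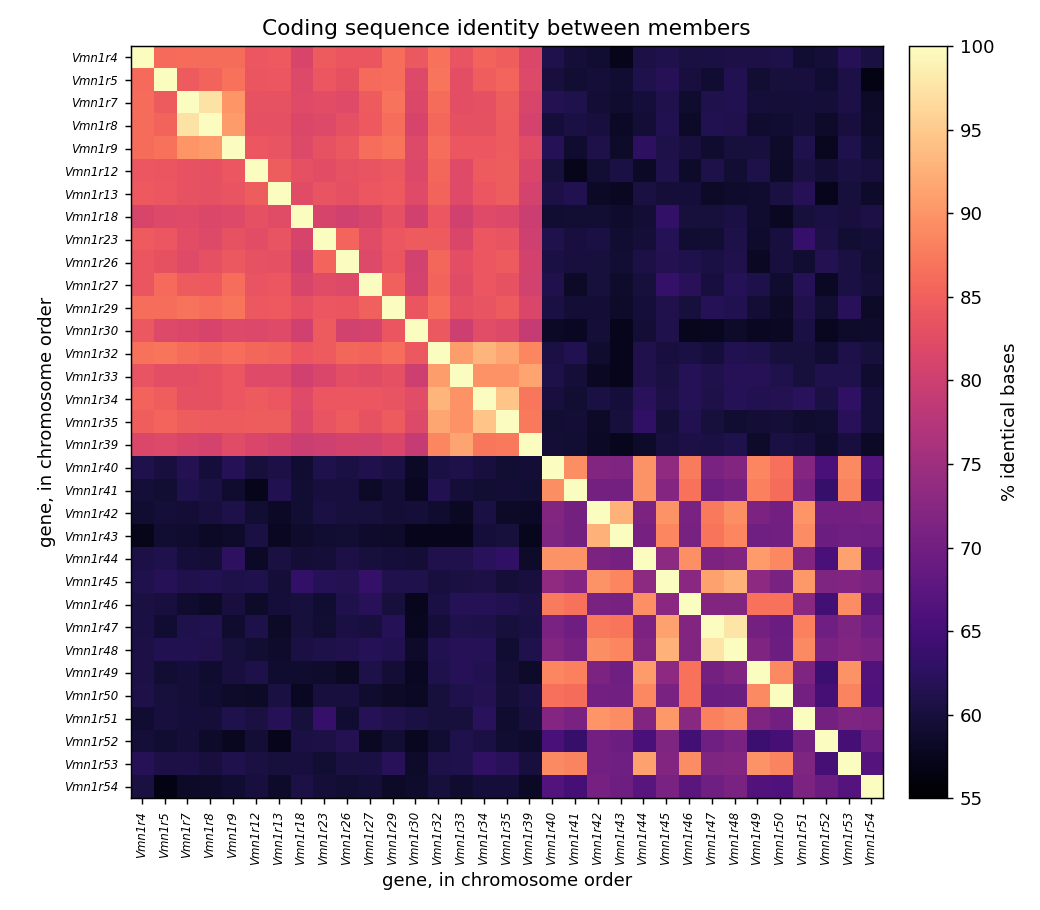
Percent identical bases between the coding sequences of every pair of the 33 genes, with genes in chromosome order on both axes and colour for identity. The 18 genes of the first 2 blocks form 1 square, and the third block separates into V1ra and V1rb genes, which are interleaved along the chromosome.

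The V1ra and V1rb genes are interleaved in the third block but differ from each other in coding sequence. Within V1ra the identity was 87.1% to 97.6%, within V1rb 86.3% to 91.2%, and over the 42 pairs that cross the groups 69.2% to 73.3%. At 88 positions all 6 V1ra genes share a base that all 7 V1rb genes replace with another base that they share. A stretch of 60 bases that holds 13 of these positions, in capitals, is shown for 3 genes of each group. It was picked as the gap-free stretch of that length with the most such positions. These groups are shown because they stood on opposite sides in the comparison described further on. The sequences come from GENCODE M21 and run 5′ to 3′ along the coding strand. Counted from the first coding base, the stretch is bases 173 to 232 in Vmn1r42 and Vmn1r45, 203 to 262 in Vmn1r51, and 125 to 184 in the V1rb genes shown.
Vmn1r42: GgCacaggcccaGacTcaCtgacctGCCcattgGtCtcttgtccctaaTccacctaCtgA
Vmn1r45: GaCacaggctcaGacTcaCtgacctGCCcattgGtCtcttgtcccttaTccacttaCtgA
Vmn1r51: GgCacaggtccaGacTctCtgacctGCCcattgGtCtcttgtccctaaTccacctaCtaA
Vmn1r40: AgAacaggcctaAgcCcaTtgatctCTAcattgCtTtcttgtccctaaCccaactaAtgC
Vmn1r46: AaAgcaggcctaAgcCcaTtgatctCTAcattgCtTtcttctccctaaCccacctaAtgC
Vmn1r49: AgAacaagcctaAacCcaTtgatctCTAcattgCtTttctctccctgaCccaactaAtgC
The first 3 lines are V1ra genes and the last 3 are V1rb genes. Vmn1r49 is also known as V1rb2, a receptor known for its response to the urinary ketone heptanone.

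Vmn1r9, the gene with the smallest p-value of the 27 that were tested, has a near copy. Its coding sequence was 98.2% identical over 900 bases to that of Vmn1r10, which was not matched to a row and is not analysed here. It was 90.6% identical to that of Vmn1r8, its nearest relative among the 33 genes. The stretch from base 315 to base 374 of the Vmn1r9 coding sequence is given with the matching bases of both relatives. Capitals mark the 10 positions at which the 3 genes differ, 4 of which carry a base found in Vmn1r9 alone.
Vmn1r8: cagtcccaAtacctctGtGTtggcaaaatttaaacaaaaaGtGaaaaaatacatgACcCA
Vmn1r9: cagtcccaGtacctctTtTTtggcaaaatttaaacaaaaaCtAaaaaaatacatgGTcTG
Vmn1r10: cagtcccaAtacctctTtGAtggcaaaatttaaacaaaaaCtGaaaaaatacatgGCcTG
Of all 50-base words in the Vmn1r9 coding sequence, 51.8% also occur in Vmn1r10, and of its longest transcript 12.9% of words are shared with another gene. Reads from the shared stretches cannot be assigned to 1 of these genes by sequence alone, and how the authors counted them is not given in the sources used here.

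Control libraries held 10590716 to 11240065 counts and pup libraries 18199476 to 20871266, so depth was separated by group. The 33 genes together had 1904, 2702 and 1312 counts in the control libraries and 3556, 7530 and 5820 in the pup libraries. Secreted gland RNA took a large and variable share: Obp2a alone, an odorant-binding protein, held 13.0%, 17.5% and 26.0% of counts in control libraries and 17.6%, 9.38% and 21.5% in pup libraries. Levels are therefore given as CPM, the counts relative to a fixed library size, with library sizes scaled by the trimmed mean of M-values (TMM) and with SD over n = 3 libraries per group. Omp, the marker of mature olfactory and vomeronasal neurons, stood at 920, 904 and 767 CPM in control libraries and at 781, 662 and 830 CPM in pup libraries.

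As a share of all numbered V1R counts, the 33 genes held 23.3%, 28.9% and 26.3% in control libraries and 24.2%, 22.9% and 31.0% in pup libraries. The groups overlapped, with means of 26.2% ± 2.77 and 26.0% ± 4.31 (SD, n = 3 each). As a share of the library they held 0.0183% ± 0.00663 in control libraries and 0.0281% ± 0.00869 in pup libraries (SD, n = 3 each), which also overlapped. At least 1 count was found for 29, 30 and 29 genes in the control libraries and for 26, 31 and 30 in the pup libraries. With every library thinned to 10590716 counts, an alternative chosen after seeing the data, those numbers were 29, 30 and 29 against 26, 30 and 29.

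**Figure D2:**
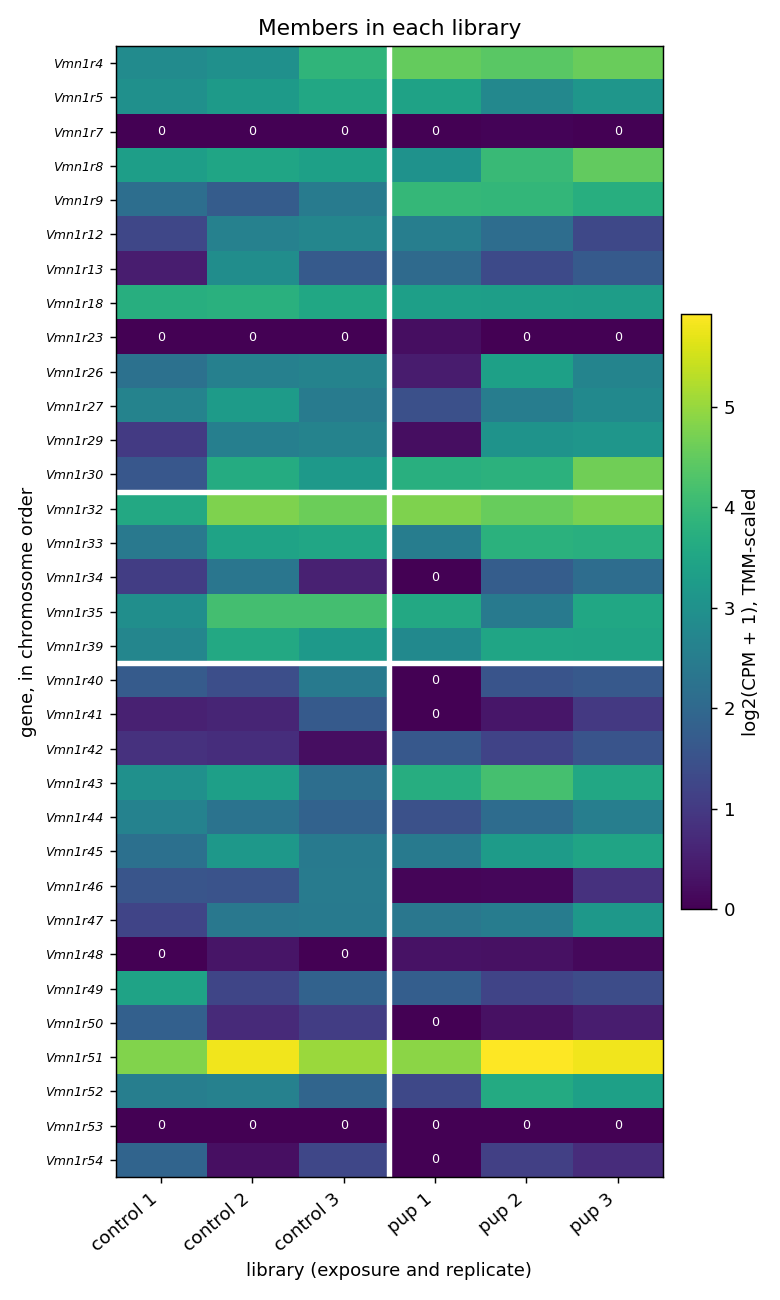
Level of each of the 33 genes (rows, in chromosome order, with white lines between the 3 blocks) in each of the 6 libraries (columns), coloured by log2(CPM + 1) with TMM-scaled library sizes, where 0 marks a library with no count. Vmn1r51 was the highest row in every library, and pup replicate 1 had 3 tested genes without a count where the other libraries had none.

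The counts were concentrated in a few receptors. Vmn1r51 (V1ra group, ENSMUSG00000062818) had 26.9, 54.5 and 31.5 CPM in control libraries and 28.7, 59.8 and 54.6 CPM in pup libraries, and 15.1% to 22.5% of the counts of the 33 genes in each library. Its groups overlapped, and its log2 fold change, pup exposure over control exposure, was 0.34 (SE 0.42, edgeR adjusted p = 0.769), with 0.15 without control replicate 1 and 0.71 without control replicate 2. Vmn1r32, of the second block, had 10.9, 26.7 and 23.2 CPM in control libraries and 26.7, 22.3 and 25.8 CPM in pup libraries. Control replicate 1 was the low library here and the rest lay close together (log2 fold change 0.30, SE 0.42, edgeR adjusted p = 0.802). Vmn1r8 had 9.0, 10.1 and 9.36 CPM in control libraries against 7.07, 15.1 and 21.5 CPM in pup libraries. The pup libraries of Vmn1r8 enclosed the control range (log2 fold change 0.62, SE 0.48, edgeR adjusted p = 0.621), and 53.9% of the 50-base words of its coding sequence occur in another gene, most of them in Vmn1r7. The Vmn1r8 value was 0.95 without pup replicate 1 and 0.23 without pup replicate 3.

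Annotated exon lengths differ widely between these genes, so the order of levels was taken per kilobase of annotated exon. On that scale Vmn1r32 led with a mean of 7.97 CPM per kilobase over the 6 libraries, followed by Vmn1r8 with 6.94, Vmn1r30 with 5.92 and Vmn1r51 with 5.45. Vmn1r35 had 4.74 and Vmn1r4 had 4.08 CPM per kilobase. Vmn1r51 thus led by counts and not per length, since its exons add up to 7824 bases against 2833 for Vmn1r32. The spread over libraries of a single gene was as large as the steps between these neighbours, as the CPM values per library show.

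At the other end, Vmn1r53 had no count in any library, Vmn1r7 had 1 count in pup replicate 2, and Vmn1r23 had 3 counts in pup replicate 1. A count of 0 in these libraries allows up to 3 counts, counting error only. Vmn1r48 had 0, 3 and 0 counts in control libraries and 4, 6 and 2 in pup libraries, and 74.7% of the 50-base words of its transcript occur in other genes, mainly in Vmn1r47. Vmn1r41 had 6, 6 and 14 counts in control libraries and 0, 8 and 20 in pup libraries, with 94.4% of the words of its coding sequence also in the pseudogene Vmn1r239-ps. Vmn1r50 also stayed below the filter and is described with the V1rb genes. These 6 genes were not tested, which left 27 of the 33. Of those 27, 19 were above the filter's cutoff of 0.679 CPM in all 6 libraries, and 8 passed with fewer libraries.

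Pup replicate 1 lacked several receptors altogether. Vmn1r34, Vmn1r40 and Vmn1r54 had no count there, while no tested gene of the 27 was at 0 in the other 5 libraries. Vmn1r40, for example, had 29, 19 and 28 counts in control libraries and 0, 54 and 44 in pup libraries. Vmn1r46 had 1 count, Vmn1r29 had 3 and Vmn1r26 had 7 in the same library, although its total of 18199476 counts exceeded that of every control library. Over all tested genes, 639 (4.12%) were at 0 in pup replicate 1, against 321, 43 and 407 in the control libraries and 32 and 10 in the other pup libraries.

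The comparison asked which of these receptors were more or less represented in the precipitate after males met pups. In edgeR's quasi-likelihood test over 15498 genes, 0 of the 27 tested genes passed an adjusted p of 0.05 in either direction, and 0% of all tested genes did so in either direction. The smallest edgeR adjusted p among the 27 was 0.375. At an unadjusted p under 0.05, 2 of the 27 were higher in pup libraries (Vmn1r9 and Vmn1r4) and 1 was lower (Vmn1r46), where 6.31% of all tested genes were higher and 4.67% lower. DESeq2 gave an adjusted p to 21 of the 27 genes, not to Vmn1r46 (DESeq2 unadjusted p = 0.00347), and called 1 higher (Vmn1r9) and 0 lower. Of the 12301 genes to which it gave an adjusted p, 0.406% were called higher and 0.626% lower. limma-voom called none of the 27, against 0.00645% of all genes higher and 0.0452% lower.

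Log2 fold changes were above 0 for 16 of the 27 genes (59.3%) and below 0 for 11 (40.7%), where 51.5% of all tested genes were above 0 and 48.5% below. Their median was 0.12, with a range from -3.16 to 1.99, beside a median of 0.03 over all tested genes. The 66 tested V1R genes numbered 55 and above had a median of 0.26 and the 97 tested V2R genes one of 0.23. By block, the medians were 0.12 (11 tested genes), 0.07 (5 tested genes) and 0.34 (11 tested genes). The median of the 27 depended on scaling: it was 0.55 with library totals alone and -0.26 when libraries were scaled by the other V1R genes, settings under which the median of all genes moved to 0.31 and -0.30.

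In 5 of the 27 genes (18.5%) the lowest pup library exceeded the highest control library, which was so for 10.1% of all tested genes. In 2 of the 27 (7.41%) the highest pup library was below the lowest control library, as in 9.6% of all tested genes. The higher genes were Vmn1r4, Vmn1r9, Vmn1r30, Vmn1r42 and Vmn1r43, and the lower ones Vmn1r18 and Vmn1r46. Vmn1r42 and Vmn1r46 passed the filter with fewer than 6 libraries above the cutoff, and a gene that passes mainly through 1 group has to differ between the groups.

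Vmn1r9 (V1rc group, ENSMUSG00000091541, plus strand of the first block from 57066787 to 57074906) had the smallest p-value. It stood at 3.44, 2.33 and 4.52 CPM in control libraries and at 14.3, 14.2 and 12.1 CPM in pup libraries. All 3 pup libraries were close together and far above the highest control library. The means were 3.43 ± 1.10 and 13.6 ± 1.27 CPM (SD, n = 3 each), a fold of 3.95. In edgeR the log2 fold change was 1.99 (SE 0.47, 95% interval 0.96 to 3.03, unadjusted p = 0.00127, edgeR adjusted p = 0.375). DESeq2 gave 1.96 with an adjusted p of 0.0197, and limma-voom 2.08 with an adjusted p of 0.429. Over the 16 other settings the value stayed between 1.65 and 2.34, with adjusted p (edgeR, DESeq2 or limma) from 0.0197 to 0.831, and DESeq2 alone was below 0.05. As the sequences show, part of these reads could also come from Vmn1r10.

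Vmn1r4 (V1rc group, ENSMUSG00000071893, plus strand from 56924015 to 56958100) had 6.26, 6.80 and 13.6 CPM in control libraries and 22.1, 20.2 and 22.6 CPM in pup libraries. The pup libraries again lay close together, and control replicate 3 was the highest of its group. The means were 8.88 ± 4.07 and 21.6 ± 1.29 CPM (SD, n = 3 each), with a log2 fold change of 1.29 (SE 0.44, unadjusted p = 0.0123, edgeR adjusted p = 0.424). This gene shares few stretches with others: 1.8% of the 50-base words of its transcript and 4.6% of those of its coding sequence occur elsewhere. Vmn1r30, at the far end of the same block, had 2.03, 11.5 and 8.27 CPM in control libraries and 12.4, 12.9 and 24.1 CPM in pup libraries. Its groups were separated by less than 1 CPM, since control replicate 2 was almost as high as pup replicate 1 (log2 fold change 1.19, SE 0.59, edgeR adjusted p = 0.482). It was 0.74 without control replicate 1 and 1.73 without control replicate 2.

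**Figure D3:**
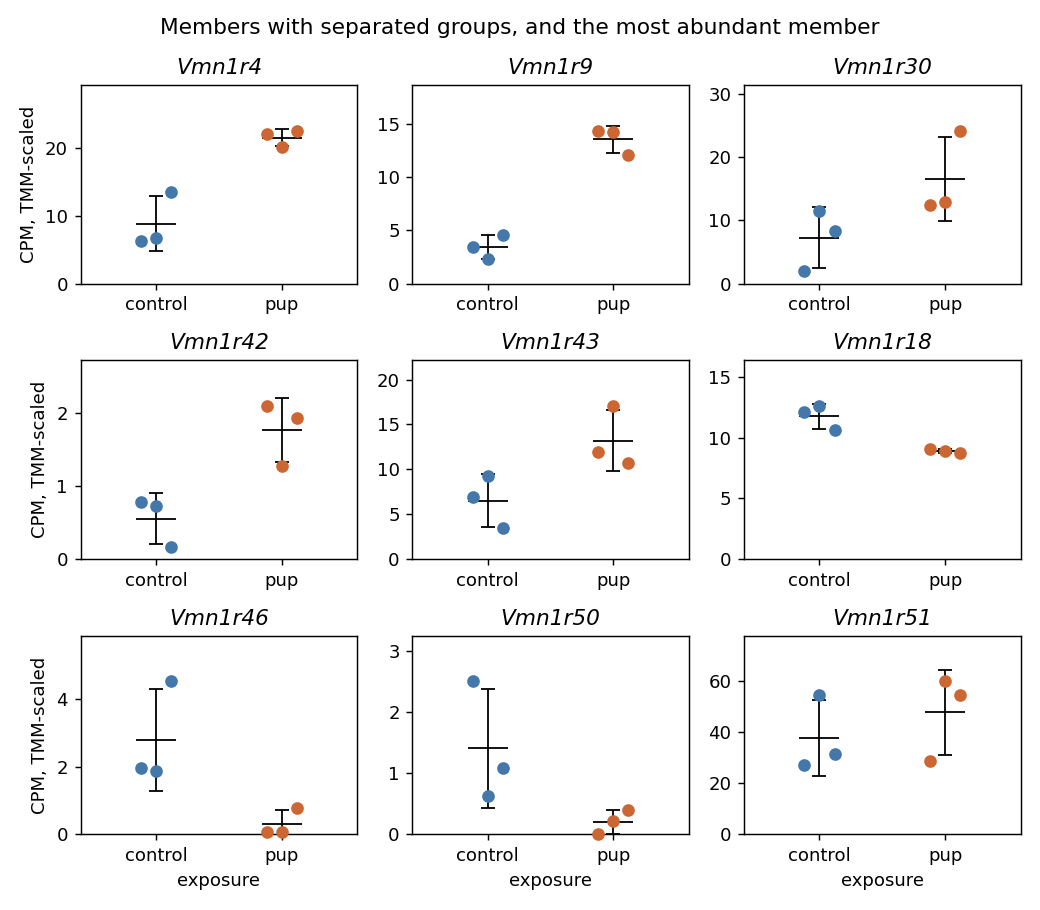
CPM with TMM-scaled library sizes for the 8 genes whose groups did not overlap and for Vmn1r51, with 1 point per library (3 control exposure, 3 pup exposure), a horizontal line at the group mean and bars of 1 SD; each panel has its own axis from 0. Vmn1r9 and Vmn1r4 show tight values in pup libraries, while Vmn1r46, Vmn1r50 and Vmn1r42 rest on levels of a few CPM.

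Vmn1r18, in the first block, was the lower gene with the least spread. It had 12.1, 12.6 and 10.6 CPM in control libraries and 9.10, 8.95 and 8.79 CPM in pup libraries. The groups did not overlap but the step was small, a log2 fold change of -0.40 (SE 0.41, edgeR adjusted p = 0.714). Vmn1r35, of the second block, had 6.57, 16.7 and 16.8 CPM in control libraries and 10.9, 4.46 and 10.5 CPM in pup libraries. Both of the high libraries were controls and the groups overlapped (log2 fold change -0.63, SE 0.52, edgeR adjusted p = 0.647), with -0.96 without control replicate 1 and -0.30 without pup replicate 2. Vmn1r27, in the first block, had 5.32, 8.59 and 4.52 CPM in control libraries and 1.71, 4.67 and 6.02 CPM in pup libraries, also overlapping (log2 fold change -0.57, SE 0.62, edgeR adjusted p = 0.736), and its value was -0.21 without pup replicate 1 and -0.94 without pup replicate 3. Over the 18 V1rc genes, 16 were tested, 10 with a log2 fold change above 0 and 6 below, with a median of 0.10.

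**Figure D4:**
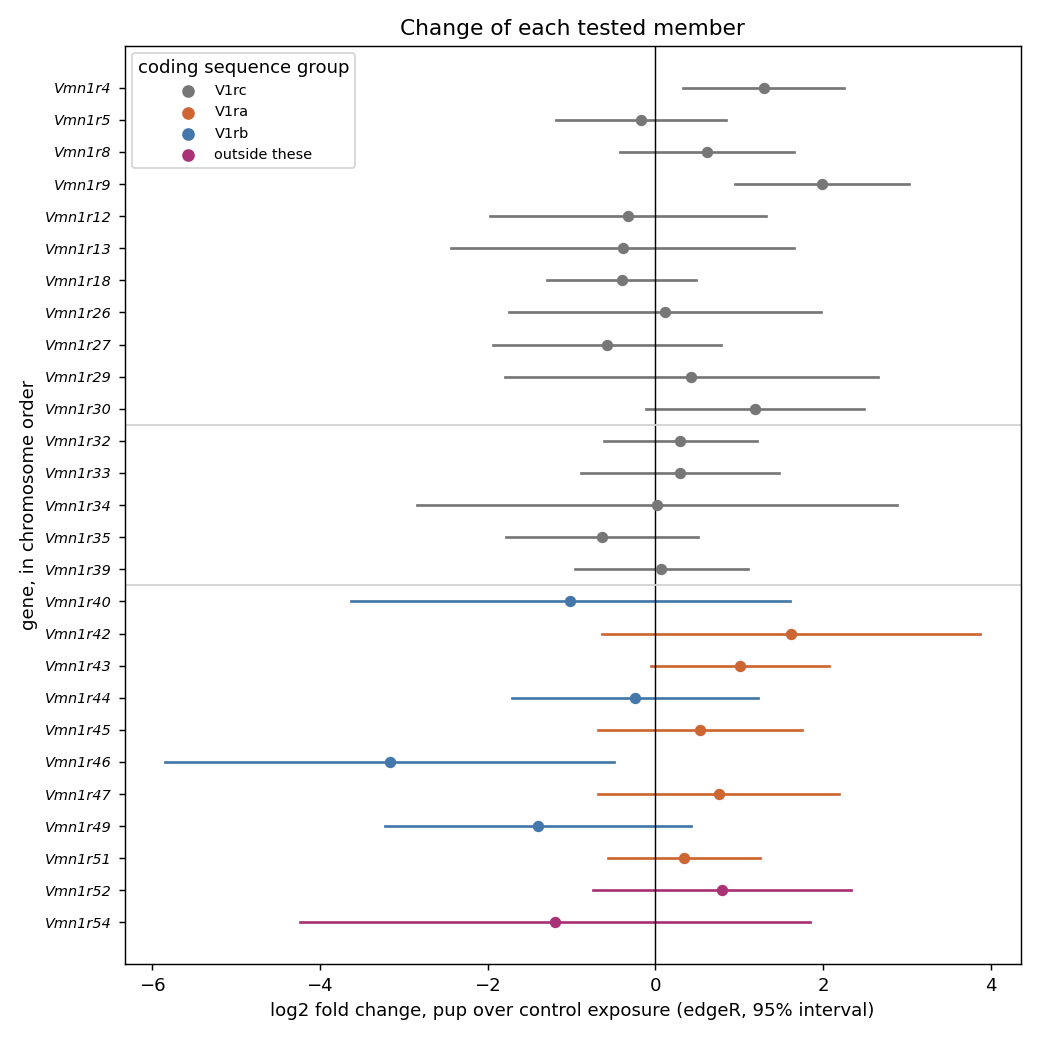
Log2 fold change, pup exposure over control exposure, of each of the 27 tested genes in chromosome order, with the 95% interval from edgeR's quasi-likelihood test and grey lines between the 3 blocks; colours give the coding sequence group. In the third block the V1ra genes lie to the right of 0 and the V1rb genes to the left, with intervals that cross 0 for all of them but Vmn1r46.

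Most of the third block divided by coding sequence. All 5 tested V1ra genes had log2 fold changes above 0, from 0.34 to 1.62 with a median of 0.76, and all 4 tested V1rb genes had values below 0, from -3.16 to -0.24 with a median of -1.20. Among genes with any count, the mean CPM was higher in pup libraries for 6 of 6 V1ra genes and lower for 6 of 6 V1rb genes. The genes of a group are not all independent measurements, since some share stretches of sequence. With Vmn1r52 and Vmn1r54, which carry V1ra symbols, counted as V1ra, 6 of 7 tested genes were above 0 and Vmn1r54 was at -1.20, and the mean CPM was higher in pup libraries for 7 of 8. No gene of either group passed the adjusted threshold in edgeR, DESeq2 or limma-voom. At an unadjusted p under 0.05 edgeR held 1, Vmn1r46, which was lower, beside 6.31% of all tested genes higher and 4.67% lower. The grouping was made after the values had been seen, so the split is given as a description with no test. The V1ra values stayed above 0 for 5 of 5 genes under every setting but scaling by the other V1R genes, where Vmn1r51 was at -0.01. The V1rb values stayed below 0 for 4 of 4 genes except that Vmn1r44 was at 0.03 without control replicate 1 and at 0.06 without pup replicate 1.

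Among the V1ra genes, Vmn1r43 (ENSMUSG00000068231) had 6.89, 9.22 and 3.43 CPM in control libraries and 11.9, 17.0 and 10.7 CPM in pup libraries. Its groups did not overlap (log2 fold change 1.01, SE 0.49, unadjusted p = 0.0613, edgeR adjusted p = 0.468). The neighbouring Vmn1r42 (ENSMUSG00000068232) had 0.783, 0.716 and 0.156 CPM in control libraries, from 10, 8 and 1 counts, and 2.09, 1.27 and 1.93 CPM in pup libraries, from 39, 36 and 39 counts. It too was separated, at low levels (log2 fold change 1.62, SE 1.03, edgeR adjusted p = 0.566). Vmn1r42 and Vmn1r43 are not independent measurements, because they share 153 exon bases on the same strand and their coding sequences are 92.6% identical. Vmn1r45 and Vmn1r47 had log2 fold changes of 0.53 (SE 0.56) and 0.76 (SE 0.66), both with overlapping groups. With 1 library left out they ran from 0.31 to 0.95 and from 0.38 to 1.0, the highest without control replicate 2.

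Vmn1r45 had 3.52, 7.88 and 4.37 CPM in control libraries and 4.34, 8.59 and 9.92 CPM in pup libraries. It was highest in control replicate 2 and pup replicates 2 and 3, the libraries in which Vmn1r51 and the median of all 27 tested genes were highest too. The bases before the annotated starts of Vmn1r45 and Vmn1r51 are alike, and both are shown from RefSeq (GRCm38.p6), each as the 150 bases before the GENCODE M21 start, 5′ to 3′ along the gene's strand, with a shared run of 61 bases in capitals. Vmn1r45 lies at chr6:89940599-89940748 on the minus strand and Vmn1r51 at chr6:90122446-90122595 on the plus strand.
Vmn1r45: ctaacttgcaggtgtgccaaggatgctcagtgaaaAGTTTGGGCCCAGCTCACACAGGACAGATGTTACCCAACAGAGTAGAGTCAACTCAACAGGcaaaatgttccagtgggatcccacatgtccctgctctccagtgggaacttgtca
Vmn1r51: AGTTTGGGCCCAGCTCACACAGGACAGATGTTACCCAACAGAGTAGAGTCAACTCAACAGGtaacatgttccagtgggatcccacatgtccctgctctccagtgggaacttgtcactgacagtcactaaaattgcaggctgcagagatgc
Where the 2 windows align, 113 of 115 bases are identical. The match is a description of these sequences. Of the 33 genes, 29 are in the promoter table, and 6 had a RefSeq start within 150 bases of the GENCODE start. Among those, Vmn1r41 had only 128 bases available before the GENCODE start. Of the 50-base words of the longest Vmn1r45 transcript, 24.6% occur in another gene, mostly the pseudogene Vmn1r-ps32, so its reads may not all be its own.

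Among the V1rb genes, Vmn1r46 (ENSMUSG00000061653, plus strand from 89969313 to 89986721) had 1.96, 1.88 and 4.52 CPM in control libraries, from 25, 21 and 29 counts. After pup exposure it had 0.0535, 0.0707 and 0.790 CPM, from 1, 2 and 16 counts. Every pup library was below every control library, and most of what was left lay in pup replicate 3. Vmn1r46 was above the filter's cutoff in 3 control libraries and 1 pup library, so its being tested depended on the group where it was high. The log2 fold change was -3.16 (SE 1.23, 95% interval -5.84 to -0.49, unadjusted p = 0.0244, edgeR adjusted p = 0.424), and DESeq2 gave no adjusted p. Without pup replicate 3 it was -5.27, and it stayed between -5.27 and -2.67 over 16 settings. Few stretches of this gene are shared, 0.5% of the 50-base words of its transcript and 3.4% of those of its coding sequence.

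Vmn1r50, not tested because of its low counts, had 2.50, 0.627 and 1.09 CPM in control libraries (32, 7 and 7 counts) and 0, 0.212 and 0.395 CPM in pup libraries (0, 6 and 8 counts). Its groups also did not overlap. Vmn1r49, the heptanone receptor, had 9.86, 1.34 and 2.65 CPM in control libraries and 2.41, 1.31 and 1.58 CPM in pup libraries. Control replicate 1 alone stood high and the groups overlapped (log2 fold change -1.39, SE 0.84, edgeR adjusted p = 0.539). Without that library the value was -0.16. Vmn1r40 and Vmn1r44 had log2 fold changes of -1.01 (SE 1.20) and -0.24 (SE 0.67), both with overlapping groups. Vmn1r40 ran from -1.48 without pup replicate 3 to -0.43 without pup replicate 1.

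Summed over their genes, V1ra receptors had 39.4, 76.8 and 43.8 CPM in control libraries and 51.4, 91.5 and 85.1 CPM in pup libraries. V1rb receptors had 22.2, 9.85 and 17.5 CPM in control libraries and 4.23, 7.07 and 10.7 CPM in pup libraries. Both sums overlapped between the groups, V1rb only because control replicate 2 was below pup replicate 3. The share of V1rb in the counts of V1ra and V1rb together does not depend on the scaling of libraries. It was 36.0% (95% exact binomial interval 32.7 to 39.5), 11.4% (9.43 to 13.5) and 28.5% (24.1 to 33.2) in control libraries. After pup exposure it was 7.60% (6.07 to 9.39), 7.18% (6.25 to 8.20) and 11.2% (9.81 to 12.7). Control replicate 2 and pup replicate 3 had overlapping intervals, and the other 2 control libraries were far above all pup libraries. These intervals cover counting error only. The means were 25.3% ± 12.6 and 8.65% ± 2.20 (SD, n = 3 each), and without Vmn1r49 they were 19.7% ± 8.46 and 6.34% ± 3.15.

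**Figure D5:**
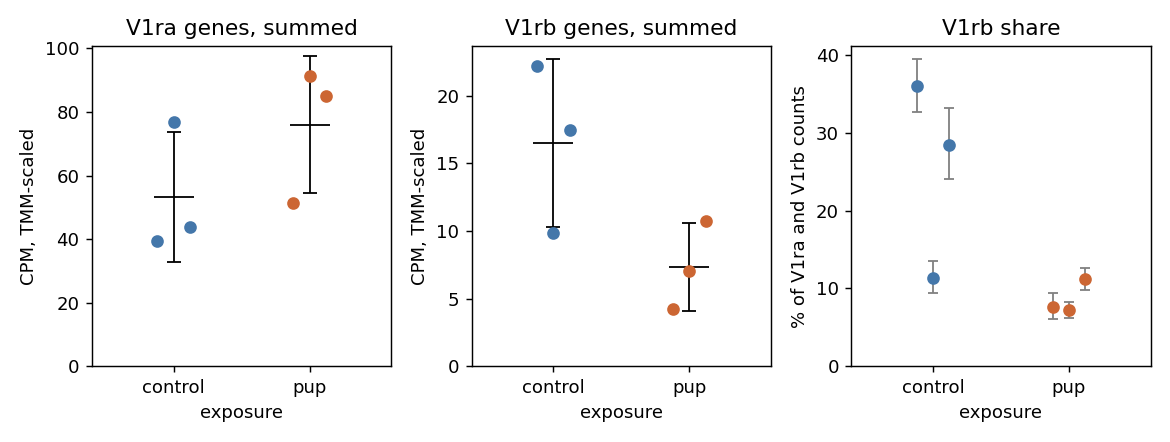
Summed CPM of the V1ra genes (left) and the V1rb genes (middle) with the group mean and bars of 1 SD, and the share of V1rb in the counts of both groups (right) with 95% exact binomial intervals, 1 point per library. The share was 7.18% to 11.2% in pup libraries, and control replicate 2, at 11.4%, was just above that range.

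The 2 remaining genes of the block, Vmn1r52 and Vmn1r54, had coding sequences at most 71.4% identical to any other of the 33. Vmn1r52 had 4.77, 5.10 and 2.81 CPM in control libraries and 1.45, 11.3 and 9.38 CPM in pup libraries. Pup replicate 1 was the lowest of all and the other 2 pup libraries the highest (log2 fold change 0.80, SE 0.71, edgeR adjusted p = 0.670). Vmn1r54 had 2.74, 0.179 and 1.40 CPM in control libraries and 0, 1.17 and 0.691 CPM in pup libraries, and its groups overlapped (log2 fold change -1.20, SE 1.39, edgeR adjusted p = 0.755).

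Genes that mark V1R neurons were read from the same fit. Of 7 listed, 6 had log2 fold changes above 0 and 1 below, with a median of 0.47, and 0 passed in edgeR, DESeq2 or limma-voom in either direction. At an unadjusted p under 0.05, edgeR had 1 of them higher, Gng2, and 0 lower, beside 6.31% and 4.67% of all tested genes. Gnai2, the G protein subunit to which V1R receptors couple, had 144, 147 and 204 CPM in control libraries and 432, 201 and 167 CPM in pup libraries. Pup replicate 1 alone was far above the rest (log2 fold change 0.69, SE 0.44, edgeR adjusted p = 0.566). Gng2, a G protein gamma subunit of apical neurons, had 62.8, 140 and 160 CPM in control libraries and 161, 309 and 278 CPM in pup libraries. It was separated by the narrow step between control replicate 3 and pup replicate 1 (log2 fold change 1.05, SE 0.45, edgeR adjusted p = 0.447).

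The signalling steps shared by all vomeronasal neurons were represented by 7 tested genes of 8 listed, since Trpc2 was not matched to a row and is not analysed here. In edgeR 0 passed, and 3 had values above 0 and 4 below. The groups did not overlap for 3 genes higher and 1 lower in pup libraries, beside 10.1% and 9.6% of all tested genes. At an unadjusted p under 0.05, edgeR had 1 higher (Ano2) and 1 lower (Kcnn3), beside 6.31% and 4.67% of all tested genes. DESeq2 called 1 lower and limma-voom 0, beside 0.626% and 0.0452% of all genes called lower by each. The calcium-activated chloride channel Ano2 had 17.8, 20.9 and 18.3 CPM in control libraries and 31.8, 48.6 and 38.7 CPM in pup libraries. All its pup libraries were higher (log2 fold change 1.07, SE 0.36, edgeR adjusted p = 0.421). The small-conductance potassium channel Kcnn3 had 26.0, 65.8 and 15.6 CPM in control libraries and 0.696, 2.23 and 7.50 CPM in pup libraries. All its pup libraries were lower (log2 fold change -3.37, SE 0.80, unadjusted p = 0.00122, edgeR adjusted p = 0.375), and DESeq2 gave an adjusted p of 0.00109. Of 11 tested genes of V2R neurons, 3 had values above 0 and 8 below, with a median of -0.39. Of these, 0 passed in edgeR, DESeq2 or limma-voom. At an unadjusted p under 0.05 edgeR had 0 of the V2R neuron genes higher and 3 lower, beside 6.31% and 4.67% of all tested genes. Their groups did not overlap for 1 gene higher and 4 lower, beside 10.1% and 9.6% of all tested genes. The 3 genes above 0 were Gnao1 (0.58), Robo2 (0.82) and Kirrel3 (0.73). Tfap2e, Gng8 and every gene of the list with an H2-M symbol were below 0. The 3 lower at that unadjusted p and the 4 separated lower were all H2-M genes, so these counts describe that gene family.

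The summed levels of markers of other cells also differed between the groups in part. The summed level of 8 sustentacular cell genes was 3863 to 4488 CPM in control libraries and 1561 to 2298 CPM in pup libraries, led by Cbr2. Red blood cell genes (5) summed to 205 to 590 CPM against 52.5 to 167 CPM, endothelial genes (7) to 71.6 to 93.1 CPM against 36.9 to 51.2 CPM, and main olfactory neuron genes (7) to 265 to 320 CPM against 409 to 576 CPM. These 4 sums did not overlap between the groups, while those of glands (9 genes), macrophages (8), ensheathing glia (6) and immature neurons and progenitors (9) did. Gland genes summed to 245353 to 855651 CPM in control libraries and 140084 to 428359 CPM in pup libraries, macrophage genes to 138 to 553 and 70.3 to 1134 CPM, glial genes to 229 to 371 and 207 to 281 CPM, and immature neuron genes to 373 to 457 and 268 to 485 CPM. In control libraries most of the endothelial sum was S1pr1, at 63.3, 71.2 and 70.4 CPM. In pup libraries S1pr1 was at 11.5, 12.2 and 16.9 CPM, and the other 6 genes of that list together made up more than it did. Those 6 genes had log2 fold changes above 0. Of the main olfactory sum, Rtp1 (159, 154 and 105 CPM in control libraries, 115, 388 and 275 in pup libraries) and Olfm1 (85.5, 127 and 134 against 262, 133 and 141) made up most, and both overlapped between the groups. Of the 7 genes of that list, 5 had log2 fold changes above 0 and 2 below. The cyclic nucleotide-gated channel genes went both ways. Cnga2 and Cnga4 were at -0.84 and -0.62, and Cngb1 was at 0.90 with groups that did not overlap. Among the markers at 0 in at least 1 library were Cnga2, Neurog1, Ermn, Dcpp1, Bpifb9a, Hba-a2, Alas2, Cdh5 and Tek. The part of these cells in the receptor values was not tested.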

How the data were processed

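The authors deposited raw counts, as whole numbers, for each Ensembl gene in 6 libraries. Per the labels' protocols, cDNA came from a low-input template-switching kit and was sheared. The submitters' processing notes name the build GRCm38. Which aligner and counter were used, and how strand and multi-mapping reads were treated, is not given in the sources used here. IDs were named from GENCODE M21 (36639 of 38561 matched). It lists 51 V1R genes numbered 4 to 54, and the 18 not matched to a row are not analysed here.

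Counts were tested with edgeR 4.0.16 in R 4.3.3: filterByExpr (minimum count 10, total 15), TMM, glmQLFTest over all genes, Benjamini-Hochberg adjustment and a threshold of 0.05. Standard errors came from the F statistic. The common biological coefficient of variation was 0.535. On counts simulated for this comparison over 15498 genes, edgeR recovered 72 of 100 genes changed by 3 and 38 of 100 changed by 2 on the log2 scale, with 6 false calls. DESeq2 recovered 77 and 57 of them with 40 false calls, and limma-voom 55 and 35 with 1 false call. Counts of replicate pairs differed by a chi-square of 88.6 to 343 per degree of freedom, more than sampling noise, so no library was a duplicate.

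Alternatives were RLE, upper quartile, library totals, scaling by the other V1R genes, no filter, a stricter filter (1 CPM in 3 libraries and 50 counts), DESeq2 1.42.0, limma-voom (limma 3.58.1), the replicate block and leaving out each library. Thinning, the coding sequence groups and their alternatives were chosen after seeing the data. The members and gene lists were chosen with earlier results of these data known. Genes named were the 5 with the smallest p in each direction, the 8 highest in mean CPM, those with separated groups or called by another tool. All other members were named by their coding sequence group or as not tested, after their values were seen. Coding sequences were compared by global alignment (MAFFT for the printed stretches, local alignment for Vmn1r10), and shared 50-base words were counted on either strand.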

Additional observations from a re-analysis of the deposited data

How the results depend on the processing

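No call was made in edgeR, under any scaling, filter, block, thinning or left-out library, for the 27 tested receptor genes. The count of receptors called higher was 1 with DESeq2 (Vmn1r9, log2 fold change 1.96). Over the lists of V1R neuron, V2R neuron and shared transduction genes together, the count called lower was 1 without the filter and 1 with DESeq2, Kcnn3 of the transduction list each time. Over all genes, calls numbered 61 higher and 59 lower without the filter, 50 and 77 with DESeq2, 1 and 7 with limma-voom, and 0 and 0 in every other setting. The median of the receptors was 0.55 with library totals only, -0.26 scaled by the other V1R genes and -0.031 to 0.48 with 1 library left out, the highest without control replicate 2. The share of V1R counts moved by -2.60 to 1.41 percentage points, pup minus control, with 1 library left out. Of the 27 receptor genes, 11 turned sign in at least 1 of 16 settings and 16 in none. Among genes described singly the turns were those of Vmn1r51 (-0.0097 scaled by the other V1R genes) and Vmn1r32 (-0.00015 without control replicate 1, in a range of -0.00015 to 0.57 with 1 library left out), besides Vmn1r44. The others were Vmn1r34 (in 10 settings, to -1.05 with limma-voom), Vmn1r26 (in 5, to -0.68), Vmn1r39 (in 4, to -0.26), Vmn1r13 (in 3, to 0.90), Vmn1r29 (in 3, to -0.27), and Vmn1r5, Vmn1r12 and Vmn1r33 (in 2 each). The cause was not tested. The V1rb median was -1.60 scaled by the other V1R genes and -0.65 without control replicate 1, and the V1rc genes above 0 numbered 4 of 16 without that library and up to 12 with library totals. With 1 library left out, the V1rb share differed by -23.6 to -11.3 percentage points. With the replicate number as a block the median was 0.08, with 0 receptors called, and no call changed. Same-numbered libraries deviated with correlations of -0.04, 0.18 and 0.07, and differently numbered ones with correlations from -0.26 to 0.14. With 3 libraries per group these values cannot show whether the numbers pair the libraries. Fewer than 10 counts in a library, as for Vmn1r42, Vmn1r46 and Vmn1r50, limit what can be read from the lowest receptors.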
